A study of Homo sapiens with 9 samples.

Results

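The genes of homologous recombination and of the Fanconi anaemia pathway were followed in MCF10A cells labelled as knockouts of XRCC1 or APE1. The set has 37 genes, taken by symbol from the authors' deposited tables of 13052 genes, and each was found once in both tables. MCF10A is a non-transformed human mammary epithelial line. XRCC1-KO cells and APE1-KO cells were each compared with Control-KO cells, which express Cas9 per the series' design text and are given as wild type in the labels; both knockouts were derived from them. There were 3 poly(A) RNA libraries in each group. Whether a knockout is 1 clone or a pool is not given in the labels. Separate cultures are not stated either, and the spread behind each p-value may therefore be technical. No values per library were used, library depth is unknown, and every value below compares group means as the log2 fold change of a knockout over Control-KO with its 95% interval.

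Homologous recombination repairs broken DNA by copying an intact sister strand. BRCA1 and the MRN complex prepare the broken end, BRCA2 and PALB2 act next on the resected strand, and RAD51C, RAD51D, XRCC2, XRCC3 and RAD54 proteins help in strand exchange with the intact copy. The Fanconi anaemia pathway clears crosslinks between DNA strands: a core ubiquitin ligase marks the FANCD2-FANCI clamp, and nucleases then cut out the crosslink and hand the break to recombination. Many of these genes are transcribed most strongly in S and G2 phase. XRCC1 is the scaffold of single-strand break repair and APE1, encoded by APEX1, cuts abasic sites in base excision repair, and unrepaired lesions of either kind can become substrates for recombination when a replication fork meets them.

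APE1-KO cells had less mRNA of their targeted gene. The authors' deposited table for APE1-KO gives APEX1 a log2 fold change of -1.50 (adjusted p = 7.17e-08), and that for XRCC1-KO gives it 0.02. XRCC1 stood at 0.14 (adjusted p = 0.779) by the authors' deposited table for XRCC1-KO, so its mRNA level does not check the XRCC1-KO label, and each direction given for these libraries rests on that label. All 10 epithelial markers looked for were listed, with mean log2 CPM from 6.34 to 12.1, and KRT5, KRT14 and TP63 were among them. Of the markers of other cell types, 2 of 7 for fibroblasts, 4 of 7 for leukocytes, 1 of 5 for endothelial cells and 3 of 5 for neurons were listed. Their highest mean log2 CPM was 4.08 for fibroblasts (COL1A1), 4.38 for leukocytes (CD68) and -0.385 for endothelial cells (KDR). For neurons it was 8.28 (TUBB3), within the range of the epithelial markers.

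All 37 genes had a mean log2 CPM of at least 1, from 3.11 for the nuclease subunit gene EME1 to 7.81 for the MRN ATPase gene RAD50, with a median of 4.93 against 4.88 over all genes. Per kilobase of transcript the levels ran from 0.25 log2 CPM per kb for RAD51D to 5.82 for UBE2T, the ubiquitin-conjugating enzyme gene of the core complex, with a median of 2.93. After UBE2T came FANCI at 4.90, RAD50 at 4.76, RBBP8 at 4.52 and NBN at 4.24, all in log2 CPM per kb, and at the low end SLX4 at 1.23, BRCA2 at 1.38 and FANCB at 1.60 followed RAD51D. The spread of these levels between libraries was not analysed here, so neighbours in this order cannot be separated. Lengths are those of the longest coding transcript of each gene, which need not be the one expressed. For RAD51D that length is 9988 nt, and its place as the lowest rests on it. On hg19, 12 of the 37 genes overlap another listed gene on the opposite strand and none overlaps one on its own strand. Whether quantification used strand is not given in the sources used here. Reads of such pairs (GEN1 with SMC6, RAD54L with LRRC41, EME1 with LRRC59) may therefore not be fully separated. The same holds for MUS81, at a mean log2 CPM of 5.13, with CFL1, at 9.66. BRCA1 and FANCD2 have partial pseudogene copies, and their values are uncertain to that extent.

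In XRCC1-KO cells, most recombination and Fanconi genes had small negative fold changes, and none passed a test. By the authors' deposited table for XRCC1-KO, 29 of the 37 lay below 0, against 50.3% of all genes, and their median was -0.09, a level of 0.94-fold, against 0.00 over all genes. In bulk RNA, fewer cells in a state that transcribes a gene and less RNA per cell cannot be told apart. The values ran from -0.24 for MRE11 to 0.12 for MUS81. No gene of the 37 had an adjusted p under 0.05 in the deposited edgeR test, where 0% of all 13052 genes did, and none had an unadjusted p under 0.05, where 5.96% of all genes did. The standard errors ran from 0.07 to 0.20 with a median of 0.11.

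**Figure D1:**
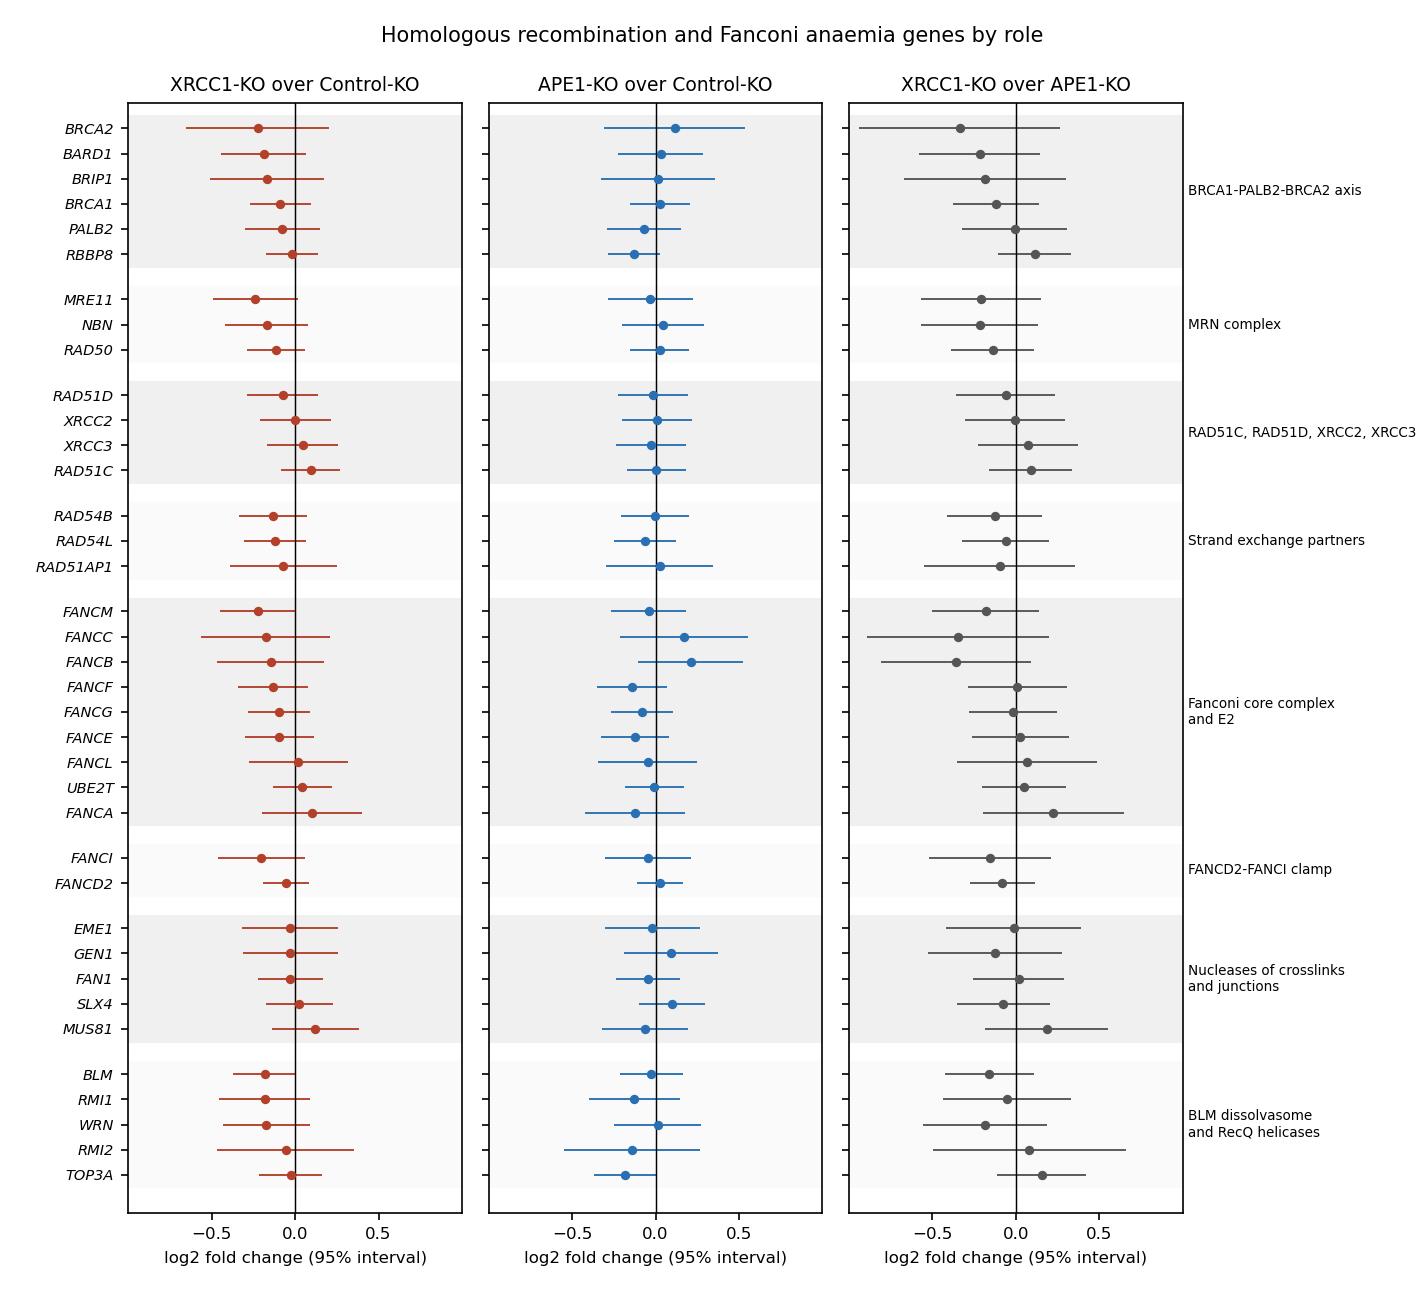
Log2 fold change of each of the 37 genes with its 95% interval (lines), grouped by role, for XRCC1-KO over Control-KO (left), APE1-KO over Control-KO (middle) and XRCC1-KO over APE1-KO (right). Every interval crosses 0; in the left panel 29 of 37 points lie below 0, and in the middle panel 22 do.

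The genes that prepare broken ends, and BRCA2 and PALB2, lay below 0 in XRCC1-KO cells. All 6 genes of the BRCA1-PALB2-BRCA2 axis did so by the authors' deposited table for XRCC1-KO, with a median of -0.13. BRCA2, the tumour suppressor gene that acts after end resection, stood at -0.22 in that table with a wide interval of -0.65 to 0.20, and BARD1, the partner of BRCA1 in its ubiquitin ligase, stood at -0.19. The helicase gene BRIP1 stood at -0.17, BRCA1 at -0.09, PALB2, the bridge between BRCA1 and BRCA2, at -0.08, and RBBP8, which encodes the resection factor CtIP, at -0.02 by the authors' deposited table for XRCC1-KO. The MRN complex, which tethers and trims the ends, had all 3 genes below 0, with a median of -0.17.

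MRE11, the nuclease of the MRN complex (ENSG00000020922.8, hg19 chromosome 11, 94152895 to 94227074, minus strand), had the lowest value of the 37. It stood at -0.24 by the authors' deposited table for XRCC1-KO, or 0.848-fold (95% interval -0.49 to 0.02, p = 0.0644, adjusted p = 0.76 by the deposited edgeR test). NBN, which recruits the complex to breaks and to the ATM kinase, stood at -0.17 (interval -0.42 to 0.08) and RAD50 at -0.11 (interval -0.29 to 0.06) by the authors' deposited table for XRCC1-KO.

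RAD51C, RAD51D, XRCC2 and XRCC3, whose products form complexes with each other, had a median of 0.02, with 1 of 4 below 0; their difference from the other roles was not tested. By the authors' deposited table for XRCC1-KO, RAD51C stood at 0.09, XRCC3 at 0.05, XRCC2 at 0.00 and RAD51D at -0.08. The strand exchange partners lay below 0, with the translocase genes RAD54B at -0.13 and RAD54L at -0.12 and the strand-invasion cofactor gene RAD51AP1 at -0.07 in the same deposited table.

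The Fanconi core complex was split. Of its 9 genes, UBE2T included, 6 lay below 0 and 3 above by the authors' deposited table for XRCC1-KO, with a median of -0.10. FANCM, the translocase that anchors the core complex on DNA (ENSG00000187790.6, hg19 chromosome 14, 45605143 to 45670093, plus strand), had the smallest p-value of the 37. It stood at -0.22 or 0.857-fold by the authors' deposited table for XRCC1-KO (interval -0.45 to 0.00, p = 0.0531, adjusted p = 0.76), rank 831 of the table by p-value. Below 0 there as well were FANCC at -0.18, FANCB at -0.15, FANCF at -0.13, FANCG at -0.10 and FANCE at -0.10, all subunits of the core complex. FANCA, another subunit, stood at 0.10, UBE2T at 0.04 and FANCL, the ubiquitin ligase itself, at 0.02 by the authors' deposited table for XRCC1-KO. Of the clamp that the complex marks, FANCI stood at -0.20 (interval -0.46 to 0.06) and FANCD2 at -0.05 (interval -0.19 to 0.09) there.

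The 5 nucleases had a median of -0.03 and held the highest value of the 37, that of MUS81. By the authors' deposited table for XRCC1-KO, MUS81, which cuts branched junctions, stood at 0.12, its partner EME1 at -0.03, the scaffold gene SLX4 at 0.03, the junction resolvase gene GEN1 at -0.03 and FAN1, the Fanconi-associated nuclease gene, at -0.03. All 5 helicase and dissolvasome genes lay below 0, with a median of -0.17. BLM, the helicase that with TOP3A, RMI1 and RMI2 dissolves crossed strands without exchange (ENSG00000197299.6, hg19 chromosome 15, 91260558 to 91358859, plus strand), stood at -0.18 or 0.881-fold by the authors' deposited table for XRCC1-KO (interval -0.37 to 0.01, p = 0.0563, adjusted p = 0.76). RMI1 stood at -0.18, the helicase and exonuclease gene WRN at -0.17, RMI2 at -0.06 and TOP3A at -0.03 there.

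The intervals bound the difference between these groups of libraries, and the spread behind them may be technical. In XRCC1-KO over Control-KO, 36 of the 37 intervals lay wholly within 1.5-fold in either direction, and BRCA2 was the exception, while 9818 of 11317 genes whose mean log2 CPM was 1 or more did so. In APE1-KO over Control-KO all 37 did, and 10251 of those 11317 genes. In XRCC1-KO over APE1-KO, 31 of the 37 did, and 8160 of the 11317. Its intervals are wider because the comparisons were treated as uncorrelated although they share controls.

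**Figure D2:**
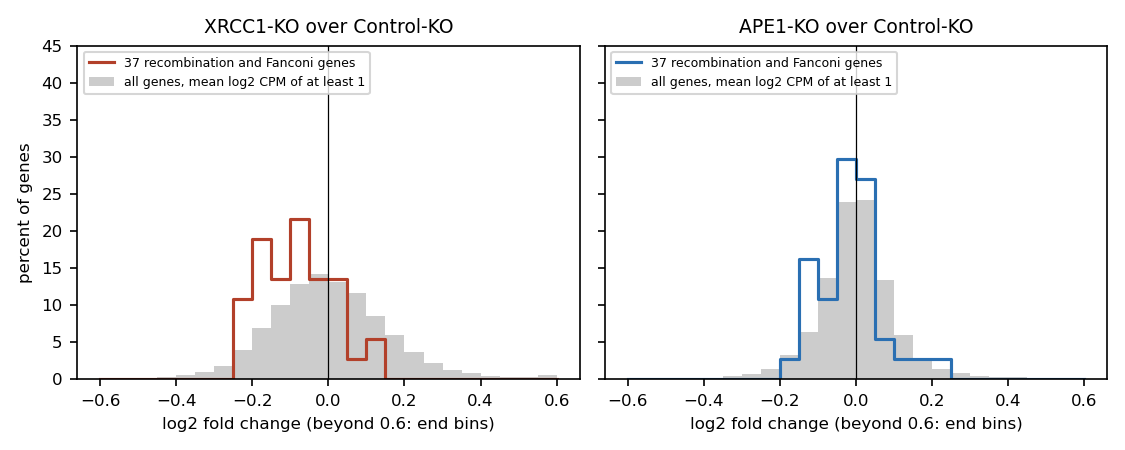
Share of genes (percent, vertical axis) by log2 fold change in bins of 0.05, for XRCC1-KO over Control-KO (left) and APE1-KO over Control-KO (right); the coloured line is the 37 recombination and Fanconi genes and the grey bars are all genes whose mean log2 CPM was 1 or more, with values beyond 0.6 in the end bins. The line lies to the left of the bars in XRCC1-KO, with medians of -0.09 and -0.01, and over them in APE1-KO, with medians of -0.02 and 0.00.

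In APE1-KO cells the same genes were spread about 0, and none passed a test. By the authors' deposited table for APE1-KO, 22 of the 37 lay below 0, against 50.5% of all genes, and their median was -0.02 against 0.00 over all genes. No gene of the 37 had an adjusted p under 0.05 in the deposited edgeR test, where 0.00766% of all genes did, namely APEX1. None had an unadjusted p under 0.05 either, where 1.45% of all genes did (0.674% lower and 0.774% higher). This comparison shares its Control-KO libraries with the first, so its values are given beside those and not as separate evidence.

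The smallest p-values in APE1-KO belonged to TOP3A, RBBP8 and FANCF. TOP3A, the topoisomerase of the dissolvasome (ENSG00000177302.10, hg19 chromosome 17, 18174742 to 18218321, minus strand), stood at -0.18 or 0.881-fold by the authors' deposited table for APE1-KO (interval -0.37 to 0.01, p = 0.0571, adjusted p = 1). RBBP8 (ENSG00000101773.12, hg19 chromosome 18, 20378224 to 20606451, plus strand) stood at -0.13 or 0.913-fold by the authors' deposited table for APE1-KO (interval -0.29 to 0.02, p = 0.0921, adjusted p = 1). FANCF, the adaptor subunit of the core complex (ENSG00000183161.3, hg19 chromosome 11, 22644079 to 22647387, minus strand), stood at -0.14 or 0.907-fold by the authors' deposited table for APE1-KO (interval -0.35 to 0.07, p = 0.17, adjusted p = 1). In XRCC1-KO the deposited values of TOP3A, RBBP8 and FANCF were -0.03, -0.02 and -0.13.

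By role, the dissolvasome and helicase genes had the lowest median in APE1-KO, at -0.13 over 5 genes, with RMI2 at -0.14 and RMI1 at -0.13 by the authors' deposited table for APE1-KO. In the core complex 7 of 9 genes lay below 0, with a median of -0.05. FANCB and FANCC, at 0.21 (interval -0.10 to 0.53) and 0.17 (interval -0.21 to 0.55), were its members above 0 by the authors' deposited table for APE1-KO and the highest of the 37. The BRCA1-PALB2-BRCA2 axis had a median of 0.02, with BRCA2 at 0.12 and BRCA1 at 0.03, and the MRN complex a median of 0.03, with RAD50 at 0.03, NBN at 0.04 and MRE11 at -0.03 by the authors' deposited table for APE1-KO. RAD51C, RAD51D, XRCC2 and XRCC3 all lay between -0.03 and 0.01, the strand exchange partners between -0.06 and 0.03, the nucleases between -0.06 and 0.10, and FANCI and FANCD2 stood at -0.05 and 0.03 in the same deposited table.

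XRCC1-KO was then set against APE1-KO by the difference of the deposited log2 fold changes, in which the Control-KO libraries cancel. Over the 37 genes this difference had a median of -0.06, against 0.01 over all genes, and 25 of 37 lay below 0, against 48.4% of all genes. None of the 37 had an adjusted p under 0.05, where 0.00766% of 13051 genes did. None had an unadjusted p under 0.05 either, where 0.743% did (0.268% lower and 0.475% higher). These p-values treat the comparisons as uncorrelated although they share controls, which makes small p-values rarer. With a correlation of 0.5 between them, FANCB alone had an unadjusted p under 0.05, and the share of all genes there is not given. The largest differences were those of FANCB, FANCC and BRCA2, with BRCA2 at -0.34, and the smallest p-values were those of FANCB, FANCC and NBN. FANCB (ENSG00000181544.9, hg19 chromosome X, 14861529 to 14891191, minus strand) was at -0.36 in XRCC1-KO over APE1-KO (interval -0.81 to 0.09, adjusted p = 0.9995 from the edgeR values). FANCC (ENSG00000158169.7, hg19 chromosome 9, 97861336 to 98079991, minus strand) was at -0.35 (interval -0.89 to 0.20), and NBN (ENSG00000104320.9, hg19 chromosome 8, 90945564 to 91015456, minus strand) at -0.22 (interval -0.57 to 0.13). All 3 genes of the MRN complex lay below 0 in this difference, with a median of -0.21, as did 5 of 6 genes of the BRCA1-PALB2-BRCA2 axis, with a median of -0.15.

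The 37 transcripts had a lower median GC content and a greater median length than all genes, features that the choice of genes did not use. Their GC content, taken from the longest coding transcript of each gene, had a median of 42.5%, against 48.7% over all genes, and their length a median of 4116 nt, against 3419 nt. Single genes ran from 35.97% GC for RAD51AP1 to 62.5% for XRCC3, and the lengths from 908 nt for UBE2T upward to that of BRCA2. Of the 37, 26 had a GC content below the median of all genes whose mean log2 CPM was 1 or more, and 20 were longer than the median transcript of those genes. The bin of lowest GC, which takes 1 in 10 of all genes, held 10 of the 37: BARD1, BRCA2, BRIP1, FANCB, FANCM, MRE11, NBN, RAD51AP1, RAD54B and RMI1. Stretches of coding sequence are shown for the 3 genes with the smallest p-values in XRCC1-KO and the 3 most GC-rich of the 37. The second group was chosen by its GC content, so its higher GC follows from that choice and shows nothing about fold change. In XRCC1-KO, XRCC3 stood at 0.05, MUS81 at 0.12 and FANCG at -0.10. Each stretch has 90 bases inside 1 coding exon (GENCODE 29, GRCh38), with G and C in capitals. It was picked because its GC content is closest to that of its whole transcript.

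FANCM: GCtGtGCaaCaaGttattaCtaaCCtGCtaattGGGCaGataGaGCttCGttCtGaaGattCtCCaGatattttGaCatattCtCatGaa
BLM: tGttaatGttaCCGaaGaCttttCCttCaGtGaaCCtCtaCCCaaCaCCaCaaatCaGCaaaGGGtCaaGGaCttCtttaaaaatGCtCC
MRE11: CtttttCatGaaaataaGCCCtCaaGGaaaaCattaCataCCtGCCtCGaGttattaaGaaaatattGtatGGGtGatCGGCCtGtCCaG
XRCC3: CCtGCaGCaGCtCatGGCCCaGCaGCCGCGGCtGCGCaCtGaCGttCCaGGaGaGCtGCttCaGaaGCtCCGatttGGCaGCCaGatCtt
MUS81: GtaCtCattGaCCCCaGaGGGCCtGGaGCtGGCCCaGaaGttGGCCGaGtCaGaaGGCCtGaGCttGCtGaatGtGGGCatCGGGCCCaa
FANCG: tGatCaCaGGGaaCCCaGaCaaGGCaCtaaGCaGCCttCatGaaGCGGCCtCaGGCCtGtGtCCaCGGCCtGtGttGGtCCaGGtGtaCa

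The stretch of FANCM lies in exon 4 of 23 (chr14:45148837-45148926, plus strand) and holds 34 G or C, that of BLM in exon 3 of 22 (chr15:90749460-90749549, plus strand) with 37, and that of MRE11 in exon 4 of 20 (chr11:94485968-94486057, minus strand) with 35. The stretch of XRCC3 lies in exon 5 of 8 (chr14:103703195-103703284, minus strand) with 56, that of MUS81 in exon 7 of 16 (chr11:65863065-65863154, plus strand) with 55, and that of FANCG in exon 6 of 14 (chr9:35077000-35077089, minus strand) with 52. The whole transcripts of FANCM, BLM and MRE11 had 37.7%, 41.2% and 38.5% GC, and those of XRCC3, MUS81 and FANCG 62.5%, 60.6% and 58.1%.

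Fold changes of the 37 genes varied with GC content, and the comparisons, which share controls, are given side by side. Genes are not independent replicates, so this is a description. Spearman's rho over the 37 between GC content and the deposited log2 fold change was 0.54 in XRCC1-KO and -0.40 in APE1-KO, against 0.35 and -0.21 across 11175 genes. With transcript length it was -0.40 in XRCC1-KO and 0.41 in APE1-KO, against -0.46 and 0.11 across all genes. In XRCC1-KO the 26 GC-poor members had a median of -0.12, with 22 below 0, and the other 11 a median of -0.03, with 7 below 0, while all genes on the same sides of the GC median stood at -0.05 and 0.04. The 10 members in the bin of lowest GC all lay below 0 in XRCC1-KO, with a median of -0.18, against -0.08 for all genes of that bin. In APE1-KO those 10 had a median of 0.02, with 4 below 0, against 0.02 for all genes of the bin. The 16 members both GC-poor and long, among them BRCA1, BRCA2, BARD1, PALB2, all of MRN, BLM and WRN, had a median of -0.17 in XRCC1-KO with all 16 below 0, against -0.09 over 3484 such genes in all, of which 2653 lay below 0.

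**Figure D3:**
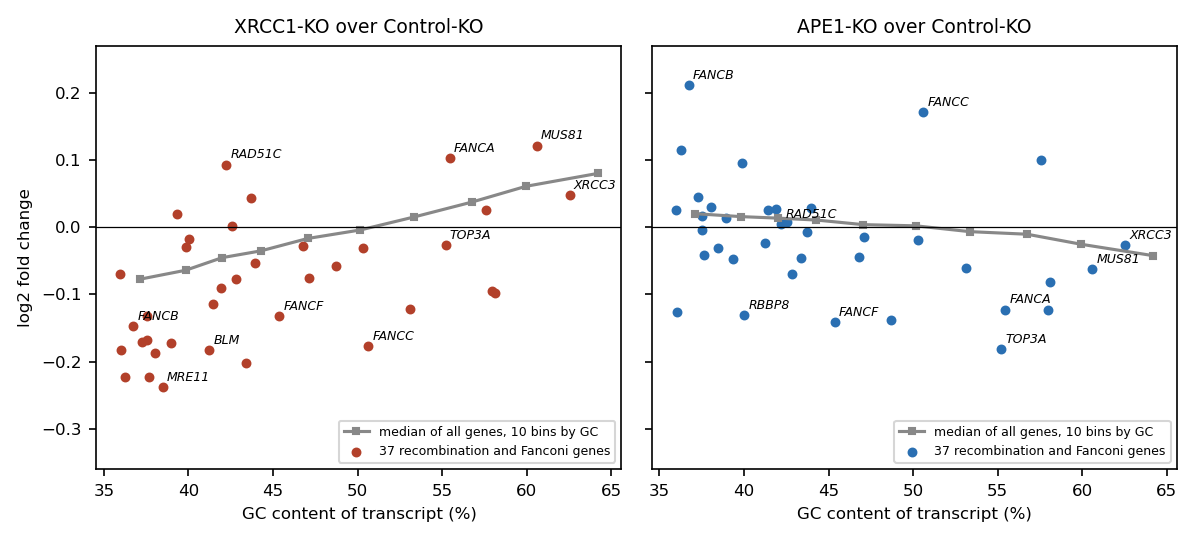
Log2 fold change (vertical axis) against GC content of the longest coding transcript (horizontal axis, percent) for XRCC1-KO over Control-KO (left) and APE1-KO over Control-KO (right); points are the 37 genes, some of them labelled, and the grey line joins the medians of all genes in 10 bins of GC content. In XRCC1-KO the grey line runs from -0.08 at low GC to 0.08 at high GC; in APE1-KO it runs from 0.02 to -0.04.

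With the trend on GC content and length across all genes removed, the median of the 37 genes moved to -0.07 in XRCC1-KO, with 26 of 37 below 0, and to -0.02 in APE1-KO, with 24 below 0. The core complex then stood at -0.11 in XRCC1-KO with 8 of 9 genes below 0, the dissolvasome and helicases at -0.10 and the MRN complex at -0.09, while the BRCA1-PALB2-BRCA2 axis stood at -0.04 with 4 of 6 below 0 and the nucleases at 0.05. BRCA1 itself was at 0.01 and FANCD2 at 0.02 after this step, against -0.09 and -0.05 before it. MRE11 was at -0.13, FANCM at -0.11 and BLM at -0.10. In XRCC1-KO, 9 of the 37 genes changed sign with this step, none of them further than 0.09 from 0 before it.

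Promoters were read from RefSeq (GRCh38.p14), which held 32 of the 37 genes, as the 250 bases before the transcription start. A single start was taken per gene, and it need not be the main one. The window of BRCA1 (chr17:43170328-43170577, minus strand) may lie away from its main start, so its lack of matches below is uncertain. The CCAAT box, a site of the factor NF-Y that many cell cycle promoters carry, was searched as CCAAT on both strands. It was found in 13 of 32 promoters or 40.6%, against 35.1% of 10259 promoters of the listed genes and 33.0% of 27305 in all. The E2F letters TTTCCCGC, TTTGGCGC, TTTCGCGC and TTTGCCGC were found in 2 of 32 (6.25%, against 4.44% and 2.79%), in FANCA and FANCC, and the letters TTTGAA and TTTAAA of the cell cycle homology region in 4 of 32 (12.5%, against 14.1% and 22.1%). CCAAT can share letters with TTTGAA or TTTAAA where they meet, and such matches were kept; a match is a description of the letters only. The 13 members with CCAAT had a median log2 fold change of -0.12 in XRCC1-KO and -0.04 in APE1-KO, and the 19 without it -0.05 and 0.01. By count, 9 of the 13 and 15 of the 19 lay below 0 in XRCC1-KO. In XRCC1-KO the 2 with E2F letters had a median of -0.04 and the 30 without -0.08, and the 4 with letters of the cell cycle homology region -0.17 and the 28 without -0.07. None of these splits was tested. The last 120 bases before the start are shown for the 3 genes with the smallest p-values in XRCC1-KO. CCAAT on either strand is in capitals. These 3 were picked by p-value and do not stand for the other promoters. XRCC3 had the most CCAAT matches, 5, and stood at 0.05 in XRCC1-KO. BARD1 and BRCA2 had none and stood at -0.19 and -0.22.

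FANCM: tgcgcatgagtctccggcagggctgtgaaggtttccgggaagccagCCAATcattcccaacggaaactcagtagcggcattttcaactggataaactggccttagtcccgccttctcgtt
BLM: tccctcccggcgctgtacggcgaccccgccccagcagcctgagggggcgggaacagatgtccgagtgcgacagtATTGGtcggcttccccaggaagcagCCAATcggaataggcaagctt
MRE11: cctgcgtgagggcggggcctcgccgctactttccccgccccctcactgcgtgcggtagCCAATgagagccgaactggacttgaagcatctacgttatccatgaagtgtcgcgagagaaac

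These lie at chr14:45135810-45135929 (plus strand), chr15:90717226-90717345 (plus strand) and chr11:94493845-94493964 (minus strand) of GRCh38.p14. FANCM and MRE11 hold 1 match each in this stretch and BLM 2, 1 on each strand.

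Other repair genes outside the 37 were read the same way. Of 81 such genes, 46 lay below 0 by the authors' deposited table for XRCC1-KO, with a median of -0.02, and 40 by the authors' deposited table for APE1-KO, with a median of 0.00. None had an adjusted p under 0.05 in either deposited table. At an unadjusted p under 0.05 in XRCC1-KO, 4 were lower and 5 higher, against 2.7% and 3.26% of all genes. RAD17, the clamp loader of the ATR checkpoint, stood at -0.30 (interval -0.48 to -0.11, p = 0.00384, adjusted p = 0.76) by the authors' deposited table for XRCC1-KO. WDR48, the partner of the deubiquitinase that clears FANCD2-FANCI, stood at -0.34 (p = 0.0361), the helicase-like gene PARPBP at -0.28 (p = 0.0133) and the checkpoint scaffold gene TOPBP1 at -0.23 (p = 0.0418) by the authors' deposited table for XRCC1-KO, each with an adjusted p of 0.76 from edgeR.

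Higher in that table, at the same level of evidence, were the recombination factor gene ZSWIM7 at 0.33 (p = 0.00762), SEM1, which binds BRCA2 and is also a proteasome subunit, at 0.29 (p = 0.0124), the helicase gene RECQL5 at 0.26 (p = 0.0126), the crosslink nuclease subunit gene ERCC1 at 0.23 (p = 0.0318) and the end-joining polymerase gene POLL at 0.21 (p = 0.0448) by the authors' deposited table for XRCC1-KO. For APE1-KO, by the authors' deposited table, ERCC1 stood at 0.23 (p = 0.0312) and ZSWIM7 at 0.24 (p = 0.0384), both with an adjusted p of 1 from edgeR, and with SLX1A they were the 3 of 81 with an unadjusted p under 0.05, against 1.45% of all genes. SLX1A, the nuclease partner of SLX4, stood at -10.2 there with a standard error of 4.32 (adjusted p = 1 from edgeR). SLX1A has a near-identical copy, SLX1B, between which reads can be split, and its value is uncertain. In XRCC1-KO over APE1-KO, RECQL5 stood at 0.30 and SLX1A at 9.97, each with an adjusted p of 0.9995 from the edgeR values. By group, damage signalling genes had a median of -0.05 in XRCC1-KO with 16 of 20 below 0, other Fanconi factors -0.03 with 9 of 15, other recombination factors 0.01 with 15 of 31, and end joining genes 0.06 with 6 of 15.

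Cell cycle genes were set beside these values. For XRCC1-KO, by the authors' deposited table, all 32 genes of mitosis and G2/M lay below 0, with a median of -0.18 and 9 at an unadjusted p under 0.05, where 2.7% of all genes were lower at that p, while of 39 listed genes for replication and the G1/S step 17 lay below 0 (median 0.01). For APE1-KO, by the authors' deposited table, those medians were 0.00 and -0.02. The part of cell cycle phase in the values of the 37 genes was not tested.

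**Figure D4:**
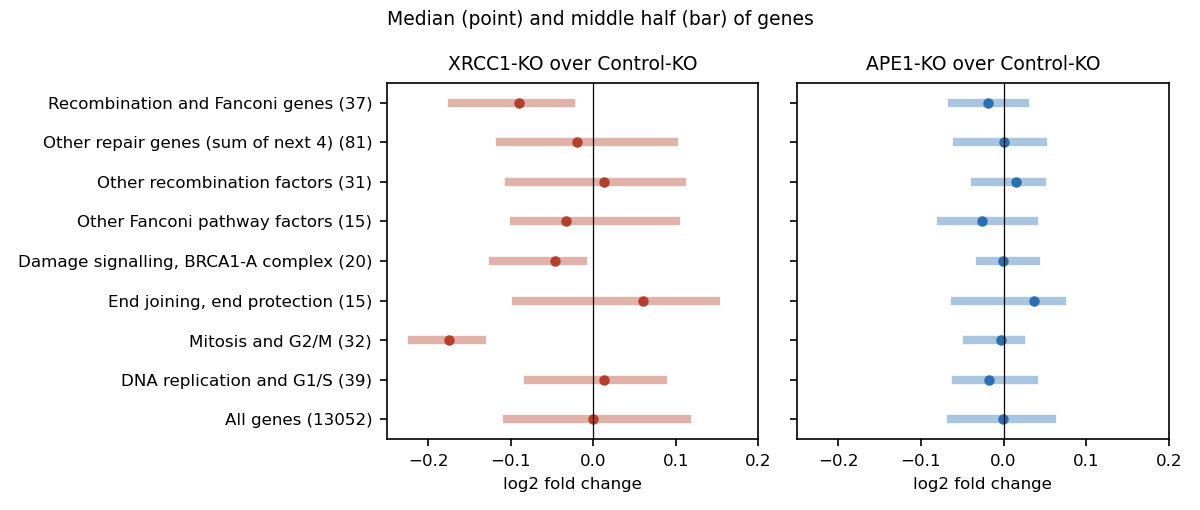
Median log2 fold change (points) and the range of the middle 50% of genes (bars) for the recombination and Fanconi genes, other repair genes, cell cycle genes and all genes, in XRCC1-KO over Control-KO (left) and APE1-KO over Control-KO (right), with the number of genes in brackets. In XRCC1-KO the 37 genes, at -0.09, lie between the genes of mitosis at -0.18 and those of DNA replication at 0.01.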

How the data were processed

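RNA-seq of 9 MCF10A libraries is represented by the authors' deposited tables of 2 comparisons, XRCC1-KO and APE1-KO against Control-KO. The submitters' processing notes name Trim Galore, Salmon 1.4.0, edgeR and hg19; filters, normalisation and model are not stated. Per the file headers, each gene has a log2 fold change, a mean log2 CPM, an F score, a p-value, a false discovery rate and a −log10 p-value, all deposited by the authors. No values per library were used, so depth is unknown and no SD or left-out library can be given.

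Standard errors were recovered by dividing the size of each log2 fold change by the root of F. For an F below 0.01 in 1 comparison the other's was taken, and where it was under 0.01 in both, that of the larger F. Intervals use Student quantiles with 15.2 degrees of freedom, obtained by solving p for each F of 3 or more. XRCC1-KO was set against APE1-KO by the difference of log2 fold changes with squared standard errors added, adjusted over 13051 genes by Benjamini-Hochberg. This is conservative, because the comparisons share controls. These steps were tested on simulated data in which changed genes differed by 1 log2 unit, more than any of the 37 genes did here. That simulation does not show how well smaller changes would be found.

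GC content and length came from the longest coding transcript in GENCODE 29 (12838 genes matched by Ensembl ID). Their trend was a robust cubic fit over 11175 nuclear genes whose mean log2 CPM was 1 or more. Members and lists were chosen with earlier results of these data known. Members with an unadjusted p under 0.05, else the 3 smallest p-values per comparison, get full statistics; of other repair genes those with an unadjusted p under 0.05 and mean log2 CPM from 1 upward are named, at most 10 per comparison. Python 3.11.15, NumPy 2.4.6, SciPy 1.17.1 and pandas 2.3.3 were used.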

Additional observations from a re-analysis of the deposited data

How the results depend on the processing

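No paired analysis was possible because values per library were not used, and for the same reason no replicate could be left out. In all settings run (only genes of log2 CPM 1 or more, the median of all genes subtracted, Benjamini-Hochberg again, all rows of a symbol, normal quantiles and a correlation of 0.5 for the difference, and the trend with length and GC removed) none of the 37 genes passed adjusted p 0.05 in any of the 3 comparisons, and the lowest adjusted p was 0.73. With that correlation between the comparisons, as shared controls give, 1 gene, FANCB, had an unadjusted p under 0.05 in XRCC1-KO over APE1-KO. The share of all genes at that setting is not given here, so this count has no background beside it. The 0.743% given earlier belongs to the stricter test without that correlation. Removing the trend with GC alone or with length alone, chosen after seeing the data, gave medians of -0.06 and -0.11 in XRCC1-KO, -0.02 and -0.02 in APE1-KO, and -0.04 and -0.03 for their difference.

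With the trend on both removed, some signs turned, and the intervals of these genes held 0, as did those of all 37. Their largest size before this step was 0.09 in XRCC1-KO and 0.027 in APE1-KO. For XRCC1-KO over APE1-KO it was 0.1236, that of GEN1. In XRCC1-KO these were BRCA1 at 0.0103, FANCD2 at 0.024, RAD51D at 0.00967, UBE2T at -0.0892, XRCC3 at -0.000838, FAN1 at 0.0336, RBBP8 at 0.0296, GEN1 at 0.0827 and FANCL at -0.0157. In APE1-KO they were WRN at -0.00368, RAD50 at -0.00583, BRIP1 at -0.0074 and XRCC3 at 0.0142. In XRCC1-KO over APE1-KO they were RMI1 at 0.00653, BRCA1 at 0.00809, FANCE at -0.042, FANCD2 at 0.00706, RAD51D at 0.0532, PALB2 at 0.0587, UBE2T at -0.0656, XRCC3 at -0.015, GEN1 at 0.0297 and XRCC2 at 0.031. The directions of these genes rest on that choice. The intervals, with a median standard error of 0.11, limit what a single gene can show.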
